A study of Sus scrofa with 16 samples.

Results

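The genes described here encode the soluble proteins of the dense-core granules in which pituitary cells store their hormones, and the enzymes and helper proteins that cut and finish prohormones inside those granules. The list held 10 genes, namely CHGA, CHGB, SCG2, SCG3, SCG5, PCSK1N, PCSK2, CPE, PAM and VGF. A gene was taken when its Ensembl identifier in the count table of 25880 genes carried the symbol in the deposited comparison of the groups, and 8 of the 10 were found so. PCSK2 and VGF had rows of counts but no symbol in that comparison. They were named from the RefSeq gene list of the pig and are described beside the 8, and every count of genes found by the symbol leaves them out.

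RNA of the whole pituitary was sequenced in 16 gilts of the native Polish breed Złotnicka White, 8 with low feed conversion (LFC) and 8 with high feed conversion (HFC), to ask which pituitary genes differ with the amount of feed used for growth. All animals were females labelled as day 180 of age, came unrelated from different farms, and were housed and fed alike at 1 test station until a set slaughter weight. The paper reports that age at the end of the test varied between pigs. In this breed it gives HFC pigs more days in test, lower daily gain and more fat at several points. Feed conversion was thus not the only trait in which the groups differed. No allele or agent set the groups apart. Whole glands were homogenized, so anterior and posterior lobe cells were pooled in each sample. The libraries were not strand-specific and RNA integrity numbers were over 7 in every sample. The group value stands in the sample labels under a tag named shear force, with the values low_FCR and high_FCR, where FCR is read here as the feed conversion ratio.

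Endocrine cells make peptide hormones as longer precursors that pass through the Golgi into granules, where acid and calcium condense them with granins, acidic proteins that aggregate and help granules form. Prohormone convertases cut the precursors at pairs of basic residues, a carboxypeptidase trims the ends that are left, and an amidating enzyme finishes the peptides that need a terminal amide. In the pituitary the same granule proteins serve cells that release growth hormone, prolactin, corticotropin, thyrotropin or gonadotropins, while the set of convertases differs between cell types, which decides for example which peptides are cut from proopiomelanocortin.

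The 16 libraries held between 6010629 and 11794256 counts, with a median of 7803047 in LFC and 9027332 in HFC. No pig had fewer than 1533 counts for any of the 8 genes, and the smallest count of PCSK2 or VGF was 141, so counting error was small beside the spread between pigs. Expression is given as CPM, the counts of a gene scaled to a common library size, after TMM scaling, a correction for the composition of the library. A log2 fold change is a difference, HFC over LFC, fitted with edgeR's quasi-likelihood test with its standard error (SE), and p-values were adjusted by the Benjamini-Hochberg method over all 13621 genes tested. Levels were not compared between genes because transcript lengths were not used here. Of 7 endocrine transcription factors with a row, none was at 0 in every pig, and POU1F1 had 181 CPM ± 41.1 (SD, n = 8) in LFC and 191 CPM ± 49.4 (SD, n = 8) in HFC. Posterior lobe glia and myelin genes summed to over 1000 CPM in LFC pigs 1, 5 and 7 (1657, 5963 and 1223 CPM) and in HFC pig 6 (3295 CPM), against at most 256 CPM in the other 12 pigs. Cytosolic ribosomal protein genes summed to 120822 CPM in LFC pig 4 and 112519 CPM in HFC pig 5, and their sum was at most 88756 CPM in every other pig. The counts of genes, the differences of PCSK2 and VGF and the counts of correlated pairs are given below also without the 4 pigs high in glia and myelin genes and, separately, without the 2 pigs high in ribosomal protein genes.

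None of the 8 genes differed between the groups at an adjusted p of at most 0.05 with a fold change of 1.3 or more, and neither did PCSK2 or VGF. This was also the share over all genes, as 0 of 13621 (0%) passed with edgeR's quasi-likelihood test, and 0% with limma voom, while 29 genes (0.213%), none of them among the 10, passed with DESeq2. With an unadjusted p no larger than 0.05, edgeR gave 0 of the 8 genes beside 11.4% of all genes tested (7.03% higher and 4.41% lower in HFC). DESeq2 gave 3 of the 8 (CHGB, SCG2 and CPE) beside 13% of all genes tested, and limma voom with quality weights gave 2 (CHGB and SCG2) beside 18.6%. The groups of pigs overlapped for each of the 8 genes, as they did for all but 0.00734% of the genes tested. Of the 8 genes, 5 had a higher fitted level in HFC and 3 a lower one, where 47.9% of all genes tested were higher. Their median log2 fold change was 0.17, in a range from -0.15 to 0.47, against a median of -0.01 over all genes tested. Together the 8 genes took 2.07% ± 0.663 (SD, n = 8) of all counts in LFC and 2.68% ± 0.555 (SD, n = 8) in HFC. CHGB had the most counts of the 8 in every pig. It took from 0.541% to 2.02% of all counts in LFC and from 1.00% to 2.12% in HFC, so the sum mainly follows CHGB.

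Among the granins, the fitted levels of CHGA, CHGB and SCG2 were higher in HFC by similar amounts, and the pigs of the groups overlapped for each gene. CHGA (ENSSSCG00000002456, chromosome 7 of Sscrofa11.1, 114345091 to 114358571) encodes chromogranin A, a major granule protein and the precursor of several peptides. Its lowest, median and highest values were 333, 875 and 1548 CPM in LFC and 934, 1199 and 2258 CPM in HFC. Every HFC pig lay above the LFC median and 4 LFC pigs lay below the lowest HFC pig, yet only 1 HFC pig lay above the highest LFC pig. The log2 fold change of CHGA was 0.47 (SE 0.26, 95% interval -0.07 to 1.01, unadjusted p = 0.0858, adjusted p = 0.460 with edgeR). HFC pig 4 alone reached 2258 CPM, where the next HFC pig had 1377 CPM, and without it the log2 fold change was 0.30.

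CHGB (ENSSSCG00000039779, chromosome 17, 14747282 to 14761995) encodes chromogranin B, a second acidic granin. Its lowest, median and highest values were 5803, 11428 and 20022 CPM in LFC and 11332, 17125 and 22209 CPM in HFC. In 7 of 8 HFC pigs the level was above the LFC median, and 3 LFC pigs were below the lowest HFC pig. CHGB had a log2 fold change of 0.46 (SE 0.24, 95% interval -0.04 to 0.95, unadjusted p = 0.0683, adjusted p = 0.449 with edgeR). SCG2 (ENSSSCG00000023032, chromosome 15, 125419847 to 125426278) encodes secretogranin II, the precursor of secretoneurin. LFC pigs had a lowest value of 2227, a median of 3113 and a highest value of 5613 CPM, and HFC pigs had 2811, 4904 and 6683 CPM. Again 7 of 8 HFC pigs lay above the LFC median, the exception being HFC pig 6, which was among the pigs with high glia and myelin genes. For SCG2 the log2 fold change was 0.43 (SE 0.21, 95% interval -0.01 to 0.87, unadjusted p = 0.0568, adjusted p = 0.438 with edgeR), the lowest p-value among the 8 genes.

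SCG3 (ENSSSCG00000004630, chromosome 1, 120042435 to 120138175) encodes secretogranin III, which binds chromogranin A and the granule membrane. It ranged from 259 to 481 CPM in LFC, with a median of 320 CPM, and from 280 to 476 CPM in HFC, with a median of 382 CPM, so the ranges were almost the same. SCG3 had a log2 fold change of 0.12 (SE 0.15, 95% interval -0.20 to 0.44, adjusted p = 0.706 with edgeR). Its span overlaps 2 other RefSeq genes, LYSMD2 and LOC100153465, and with libraries that were not strand-specific their reads may not be told apart where they overlap.

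VGF (ENSSSCG00000039053, chromosome 3, 8888502 to 8891399 in the RefSeq annotation of Sscrofa11.1) encodes a granin-like precursor of several bioactive peptides. LFC pigs had a lowest value of 29.8, a median of 91.8 and a highest value of 152 CPM, and HFC pigs had 78.4, 142 and 265 CPM. In 7 of 8 HFC pigs the level lay above the LFC median, and 3 of them lay above the highest LFC pig. VGF had a log2 fold change of 0.76 (SE 0.30, 95% interval 0.14 to 1.38, unadjusted p = 0.0194, adjusted p = 0.413 with edgeR), which did not pass the adjusted threshold. Without the 4 pigs high in glia and myelin genes the log2 fold change was 0.70 with an unadjusted p of 0.0773 in edgeR, and without the 2 pigs high in ribosomal protein genes it was 0.80 with an unadjusted p of 0.0175 in edgeR.

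**Figure D1:**
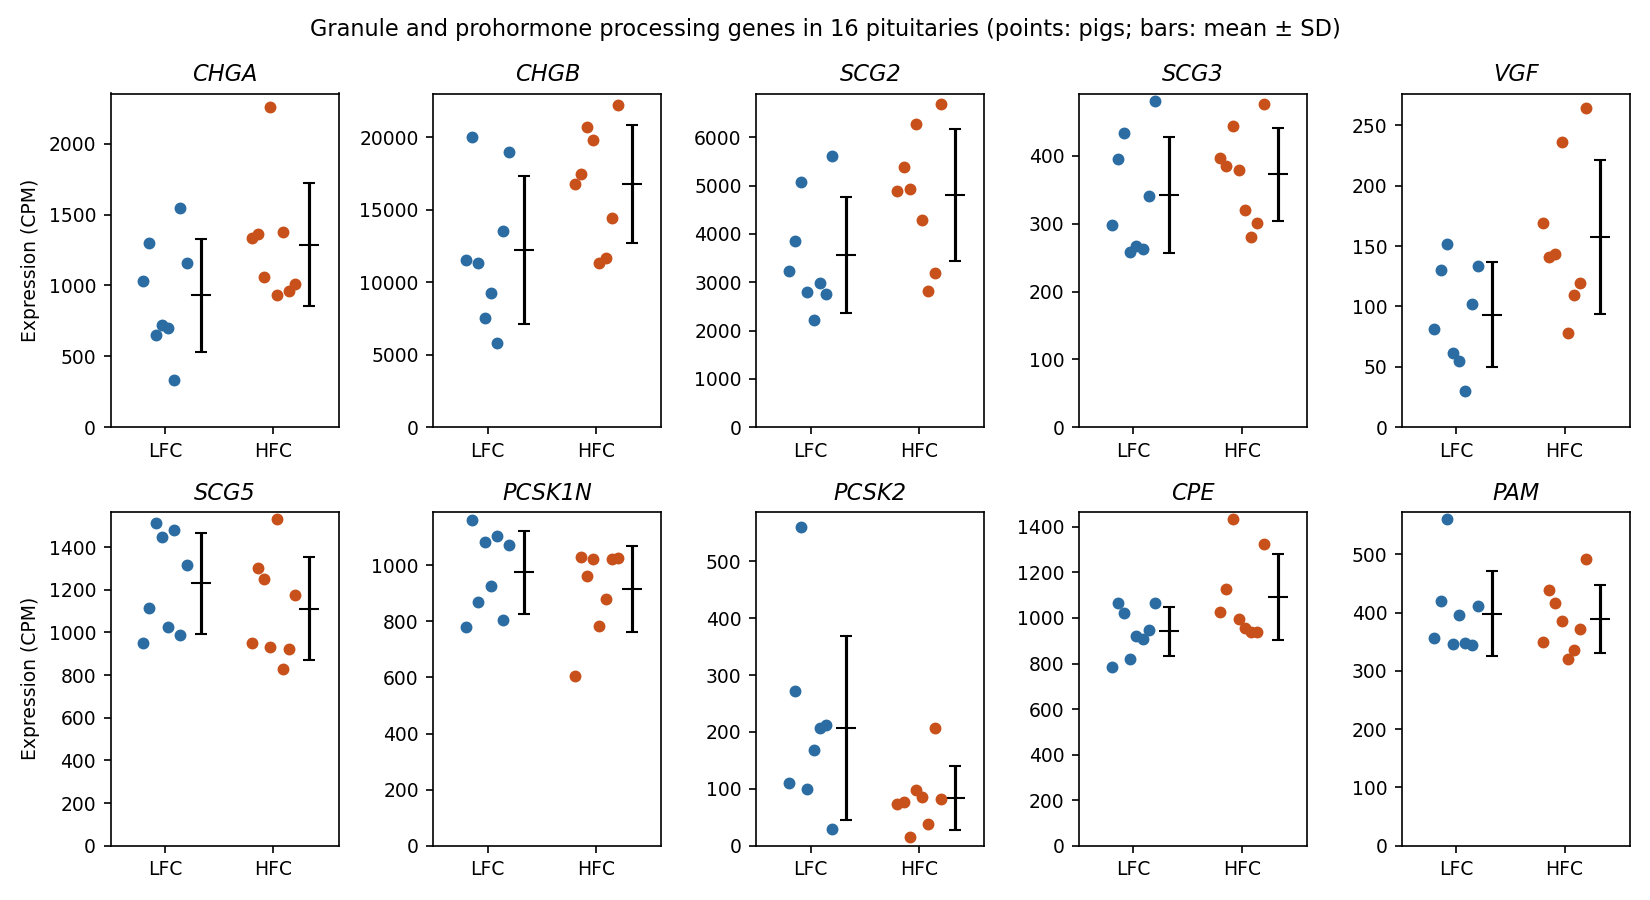
Expression of the 8 genes and of PCSK2 and VGF in CPM (vertical axes, starting at 0) in each of 8 LFC and 8 HFC pigs, with points for pigs and bars for the mean ± SD of a group. The groups overlap in every panel, CHGA, CHGB, SCG2, SCG3, CPE and VGF have higher means in HFC, and PCSK2 spreads from 29.6 to 559 CPM in LFC.

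The fitted levels of the partners of the convertases were slightly lower in HFC, and the interval of SCG5 includes a 1.3-fold decrease. SCG5 (ENSSSCG00000004807, chromosome 1, 136525961 to 136590965) encodes 7B2, the chaperone that keeps convertase 2 (the product of PCSK2) inactive until the granule and without which that enzyme does not mature. Its lowest, median and highest values were 951, 1215 and 1515 CPM in LFC and 827, 1063 and 1529 CPM in HFC. The HFC pigs spread over both ends of the LFC range, as 4 lay below the lowest LFC pig and 1 above the highest. SCG5 had a log2 fold change of -0.15 (SE 0.15, 95% interval -0.46 to 0.16, adjusted p = 0.645 with edgeR). PCSK1N (ENSSSCG00000021328, chromosome X, 42946869 to 42952284) encodes proSAAS, the inhibitor of convertase 1. PCSK1N had 780, 999 and 1162 CPM as lowest, median and highest values in LFC and 606, 991 and 1029 CPM in HFC. The medians lay close together, and the log2 fold change of PCSK1N was -0.09 (SE 0.13, 95% interval -0.36 to 0.18, adjusted p = 0.748 with edgeR).

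Of the 3 enzymes, PCSK2 had the widest spread between pigs. PCSK2 (ENSSSCG00000007083, chromosome 17, 25681424 to 25920690 in the RefSeq annotation of Sscrofa11.1) encodes prohormone convertase 2, which in the pituitary is typical of the melanotropes of the intermediate lobe, where it cuts corticotropin further to melanocyte-stimulating hormone. The values in LFC pigs 1 to 8 were 110, 272, 559, 100.3, 168, 207, 212 and 29.6 CPM. In HFC pigs 1 to 8 they were 72.5, 77.5, 15.3, 97.4, 85.1, 38.2, 207 and 82.5 CPM. In 7 of 8 HFC pigs the level was below the LFC median of 187 CPM, but LFC pig 8 was below all HFC pigs other than pig 3, and HFC pig 7 was above the LFC median. The coefficient of variation was 77.9% in LFC and 66.8% in HFC, where the median gene had 20.5% and 20.1%. PCSK2 had a log2 fold change of -1.29 (SE 0.48, 95% interval -2.30 to -0.29, unadjusted p = 0.0146, adjusted p = 0.413 with edgeR). Without LFC pig 3, the pig with the highest level, it was -0.87 with an unadjusted p of 0.0645 in edgeR. Without the 4 pigs high in glia and myelin genes it was -1.36, and without the 2 pigs high in ribosomal protein genes it was -1.38.

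CPE (ENSSSCG00000008854, chromosome 8, 43568504 to 43695862) encodes carboxypeptidase E, which removes the basic residues left after the convertase cut. Its lowest, median and highest values were 784, 933 and 1067 CPM in LFC and 937, 1009 and 1433 CPM in HFC. All 8 HFC pigs lay above the LFC median and 4 LFC pigs lay below the lowest HFC pig, with a small difference in level. The log2 fold change of CPE was 0.21 (SE 0.11, 95% interval -0.03 to 0.46, unadjusted p = 0.0777, adjusted p = 0.455 with edgeR). PAM (ENSSSCG00000014184, chromosome 2, 108256029 to 108536880) encodes the amidating enzyme of the granule. It had 345, 377 and 561 CPM in LFC and 320, 378 and 492 CPM in HFC as lowest, median and highest values, so that the medians were almost equal. PAM had a log2 fold change of -0.03 (SE 0.12, 95% interval -0.28 to 0.21, adjusted p = 0.903 with edgeR), an interval that leaves out changes of 1.3-fold in either direction. No other interval here was narrow enough for both directions except that of PCSK1N.

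**Figure D2:**
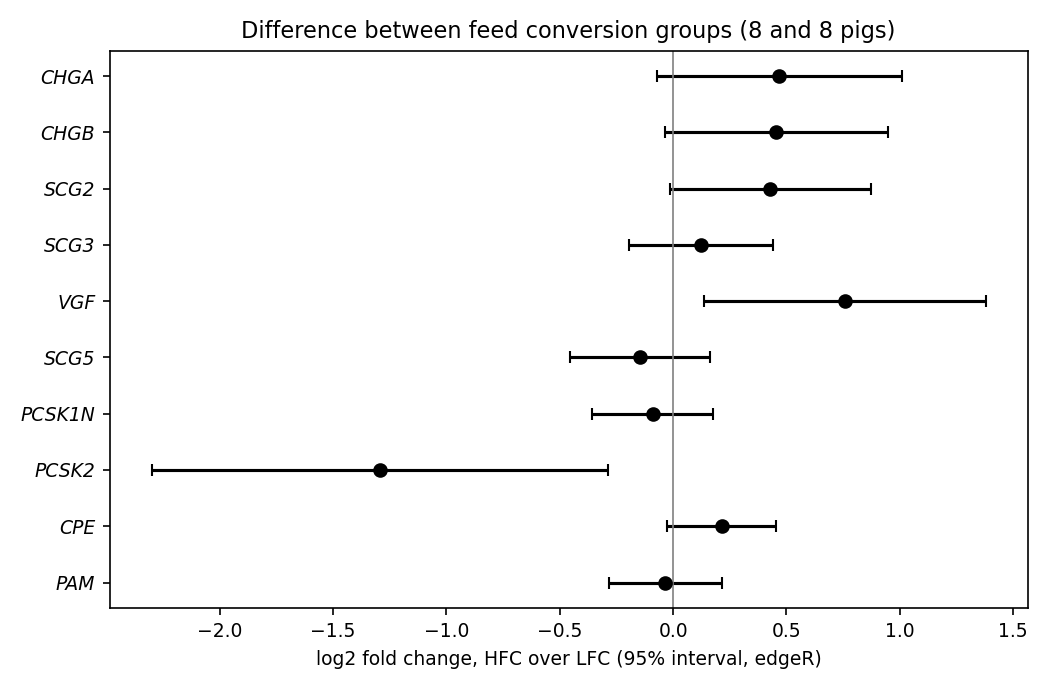
Log2 fold change of each gene (horizontal axis, HFC over LFC, edgeR) with its 95% interval, for 8 LFC against 8 HFC pigs. The intervals of the 8 genes found by the symbol include 0, and those of VGF (0.14 to 1.38) and PCSK2 (-2.30 to -0.29) do not, although neither passed after adjustment over 13621 genes.

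The hormones that these proteins package had fold changes in different directions, and with edgeR none of them passed the adjusted threshold. DESeq2 called PRL (adjusted p = 0.00892) and POMC (adjusted p = 0.0364) but none of the other 6 hormone genes found. PRL, which encodes prolactin, had 30106 CPM ± 13377 (SD, n = 8) in LFC and 72531 CPM ± 27492 (SD, n = 8) in HFC, a log2 fold change of 1.27 (SE 0.28, adjusted p = 0.372 with edgeR), and 7 LFC pigs were below the lowest HFC pig. POMC, which encodes proopiomelanocortin, had 36014 CPM ± 22458 (SD, n = 8) and 15365 CPM ± 5006 (SD, n = 8), with a log2 fold change of -1.23 (SE 0.31, adjusted p = 0.383 with edgeR) and all 8 HFC pigs below the LFC median. CGA, the common subunit of the glycoprotein hormones, had 28002 CPM ± 12684 (SD, n = 8) and 18949 CPM ± 8034 (SD, n = 8), a log2 fold change of -0.56 (SE 0.27, adjusted p = 0.433 with edgeR). GH1, the growth hormone gene, ranged from 27834 to 64332 CPM in LFC and more widely, from 23064 to 85944 CPM, in HFC, with a log2 fold change of 0.04 (SE 0.24). Of the hormone subunits TSHB and FSHB, the log2 fold changes were -1.05 (SE 0.56, unadjusted p = 0.0783 with edgeR) and 0.13 (SE 0.44). The posterior lobe hormone genes AVP and OXT, whose RNA comes mainly from hypothalamic neurons, had -0.45 (SE 0.82) and -0.22 (SE 0.60). In bulk tissue fewer cells of a type and less RNA per cell cannot be told apart. This touches every difference between the groups given here, the granins as well as PRL, POMC and PCSK2, and every correlation across pigs.

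Across the pigs, several of the granule genes varied together. Correlations of log2(CPM + 1) were computed over 16 pigs for 85 pairs, the 45 pairs among the 10 genes and the 40 pairs of each gene with PRL, GH1, POMC or CGA, with permutation tests of 100000 resamples and Benjamini-Hochberg adjustment over the 85. Both genes of a pair come from the same library and share its composition. Pearson's r was above 0 in 33 of 45 pairs with a median of 0.231, and the median was 0.343 within LFC and 0.289 within HFC. Of the 45, 12 pairs had an adjusted permutation p of at most 0.05, all with positive r between 0.674 and 0.897, and 10 of these 12 passed also with Spearman's rho. Within the groups their r ranged from 0.574 to 0.895 in LFC and from 0.238 to 0.906 in HFC. CHGB and SCG3 each took part in 5 of the 12 pairs, SCG2 and VGF in 4 each, CPE in 3, CHGA in 2 and PAM in 1. No share of passing pairs among other genes is given here. The counts of passing pairs, also those with a hormone gene, are therefore not read as particular to the granule genes.

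The highest correlation was that of CHGB with VGF, with r = 0.897 (permutation p = 1e-05, the smallest that the resamples can give, adjusted p = 0.000567) and rho = 0.809 (permutation p = 0.00027, adjusted p = 0.00382). It was 0.864 in LFC (exact permutation p = 0.00484) and 0.871 in HFC (exact permutation p = 0.0057), and 0.803 once the 2 pigs most distant from the median CHGB level were left out. SCG2 and SCG3 followed with r = 0.866 (permutation p = 2e-05, adjusted p = 0.000567) and rho = 0.803 (permutation p = 0.00035, adjusted p = 0.00425). Their r was 0.895 in LFC (exact permutation p = 0.00268), 0.872 in HFC (exact permutation p = 0.0058) and 0.823 without the 2 farthest pigs. LFC pig 8 and HFC pig 8 were the highest of their groups for both genes, and HFC pig 6 was the lowest of its group for both. CHGB with SCG3 had r = 0.827 (permutation p = 0.00014, adjusted p = 0.00198) and rho = 0.791 (permutation p = 0.0005, adjusted p = 0.00531), with 0.819 in LFC (exact permutation p = 0.0148), 0.906 in HFC (exact permutation p = 0.00337) and 0.771 without the 2 farthest pigs. Each of these 3 pairs thus had a positive r of similar size within either feed conversion group.

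CHGA behaved less evenly. With CHGB it had r = 0.755 (permutation p = 0.00069, adjusted p = 0.00733) but rho = 0.600 (permutation p = 0.0158, adjusted p = 0.0659). Its r with CHGB was 0.847 in LFC (exact permutation p = 0.00709) and 0.238 in HFC (exact permutation p = 0.590), and the difference between these was not tested. It was 0.570 once the 2 pigs most distant from the median CHGA level were left out. CHGA with VGF had r = 0.725 (permutation p = 0.00214, adjusted p = 0.014) but rho = 0.456 (permutation p = 0.0786, adjusted p = 0.239). Its r was 0.726 in LFC (exact permutation p = 0.0375) and 0.459 in HFC (exact permutation p = 0.258). Without the 2 farthest pigs it was 0.370, the lowest of the 12 passing pairs. Both pairs were chosen for mention after their values were seen.

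The 24 pairs that involve SCG5, PCSK1N or PCSK2 had r between -0.590 and 0.302, and 0 of them had an adjusted permutation p of at most 0.05. SCG5 and its client PCSK2 had r = 0.096, and the log2 ratio of SCG5 to PCSK2 was 2.95 ± 1.25 (SD, n = 8) in LFC and 4.00 ± 1.18 (SD, n = 8) in HFC, ratios of counts not corrected for length. The lowest of all member correlations was CHGA with SCG5, with r = -0.590 (permutation p = 0.0126, adjusted p = 0.0595) and rho = -0.597 (permutation p = 0.0163, adjusted p = 0.0659). It was -0.634 in LFC (exact permutation p = 0.0826), -0.475 in HFC (exact permutation p = 0.240) and -0.476 without the 2 farthest pigs. PCSK2 with CPE had r = -0.427 (permutation p = 0.0994, adjusted p = 0.282) and rho = -0.382 (permutation p = 0.145, adjusted p = 0.341), with 0.130 in LFC, -0.585 in HFC and -0.219 without the 2 farthest pigs. CHGB with PCSK2 had r = -0.378 (permutation p = 0.150, adjusted p = 0.358) and rho = -0.385 (permutation p = 0.142, adjusted p = 0.341), with -0.197 in LFC, -0.176 in HFC and -0.385 without the 2 farthest pigs. Neither of the last pairs was distinguishable from 0 in these pigs.

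**Figure D3:**
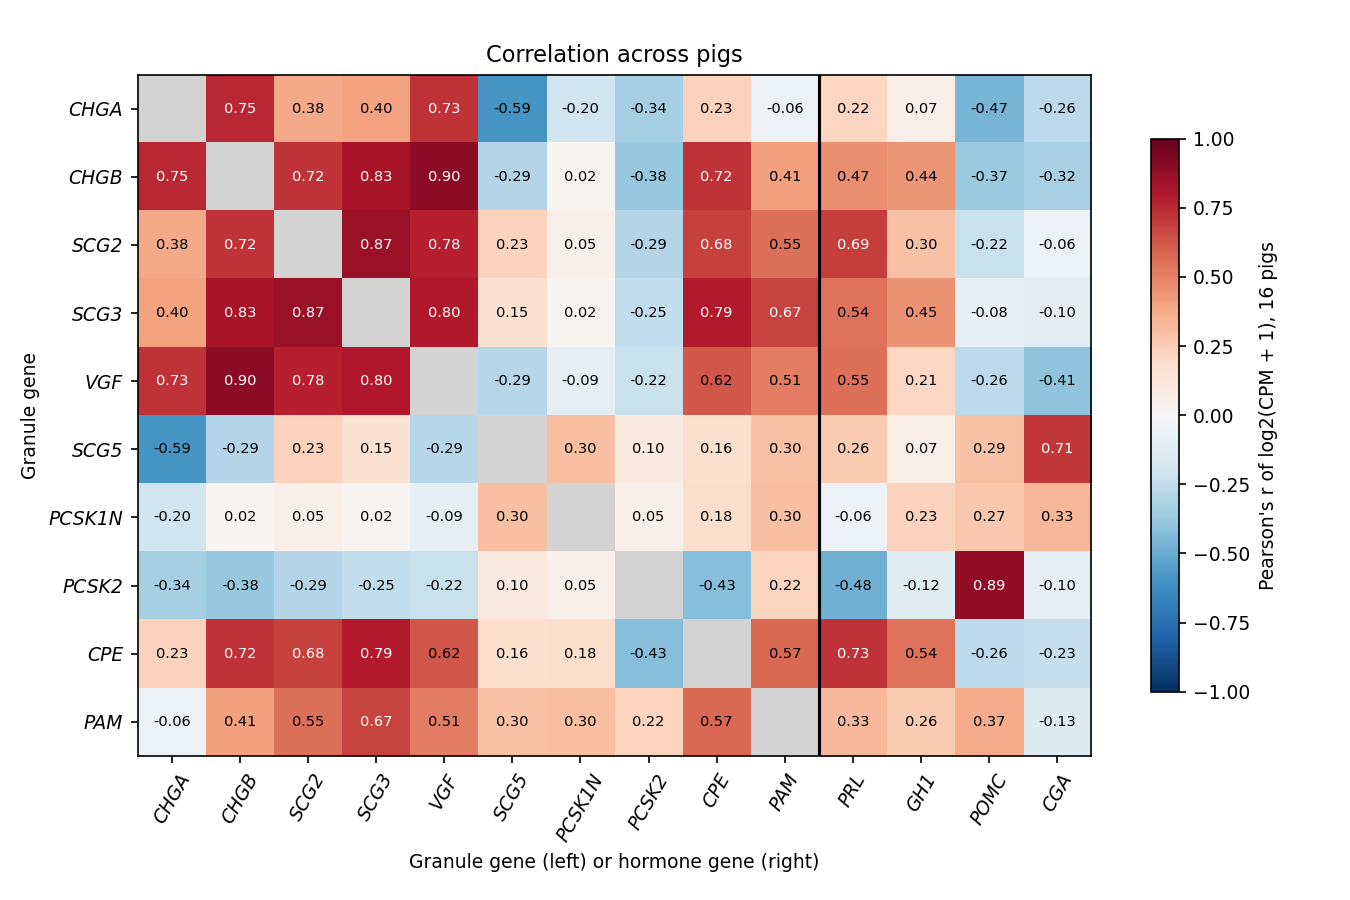
Pearson's r of log2(CPM + 1) over 16 pigs for each granule gene (vertical axis) with the other granule genes and, right of the line, with 4 hormone genes (horizontal axis), where colour and number give r. CHGB, SCG2, SCG3, CPE and VGF form a block of positive r, while SCG5, PCSK1N and PCSK2 stay near or below 0 with most genes and PCSK2 has r = 0.886 with POMC.

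Of the 40 pairs with a hormone gene, 4 had an adjusted permutation p of at most 0.05. PCSK2 with POMC had r = 0.886 (permutation p = 2e-05, adjusted p = 0.000567) and rho = 0.868 (permutation p = 2e-05, adjusted p = 0.00085). Its r was 0.850 in LFC (exact permutation p = 0.00655), 0.942 in HFC (exact permutation p = 0.00226) and 0.796 once the 2 pigs most distant from the median PCSK2 level were left out, and it stayed between 0.844 and 0.928 when each pig was left out. LFC pig 3 was the highest for both genes, with 559 CPM of PCSK2 and 83136 CPM of POMC, and HFC pig 3 was the lowest for both, with 15.3 and 8587 CPM. LFC pig 8 stood apart, with 29.6 CPM of PCSK2 at 18280 CPM of POMC. LFC pig 8 and HFC pig 3 had the least PCSK2 of their groups. They also had the least AVP (3.39 and 0.327 CPM) and OXT (4.35 and 0 CPM) of their groups. HFC pig 8 had little AVP and OXT too (1.72 and 2.80 CPM), at 82.5 CPM of PCSK2. At the other end, LFC pig 1 and HFC pig 6 had the most AVP (120.0 and 89.5 CPM) of their groups. These 2 pigs also had the most OXT (48.8 and 45.6 CPM) of their groups, but only 110 and 38.2 CPM of PCSK2. Low PCSK2 thus stood beside both low and high AVP and OXT. Whether the share of each lobe in a gland had a part in these levels was not tested. The log2 ratio of PCSK2 to POMC was -7.63 ± 0.70 (SD, n = 8) in LFC and -7.75 ± 0.68 (SD, n = 8) in HFC. PCSK2 lay below its LFC median in 7 and POMC in 8 of 8 HFC pigs. The ratio was not tested between the groups, nor was whether PCSK2 followed POMC. PCSK1, which encodes convertase 1, the enzyme that cuts proopiomelanocortin to corticotropin, had 178 CPM ± 75.8 (SD, n = 8) in LFC and 160 CPM ± 61.0 (SD, n = 8) in HFC, with a log2 fold change of -0.15 (SE 0.26, adjusted p = 0.795 with edgeR). The log2 ratio of PCSK1 to POMC was -7.55 ± 0.90 (SD, n = 8) in LFC and -6.62 ± 0.73 (SD, n = 8) in HFC. TBX19, a transcription factor of the POMC cells, had 127 CPM ± 55.1 (SD, n = 8) in LFC and 87.6 CPM ± 15.7 (SD, n = 8) in HFC, with an unadjusted p of 0.0148 and an adjusted p of 0.413 in edgeR, and its part in the PCSK2 result was not tested.

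The other 3 pairs kept a positive r but lost their calls in some sets of pigs. CPE with PRL had r = 0.725 (permutation p = 0.00098, adjusted p = 0.00926) and rho = 0.685 (permutation p = 0.00448, adjusted p = 0.0297), with 0.472 in LFC (exact permutation p = 0.238), 0.801 in HFC (exact permutation p = 0.018) and 0.604 without the 2 farthest pigs. SCG5 with CGA had r = 0.706 (permutation p = 0.00159, adjusted p = 0.0121) and rho = 0.759 (permutation p = 0.00099, adjusted p = 0.00841), with 0.514 in LFC (exact permutation p = 0.238), 0.848 in HFC (exact permutation p = 0.0061) and 0.642 without the 2 farthest pigs. SCG2 with PRL had r = 0.693 (permutation p = 0.00342, adjusted p = 0.0182) and rho = 0.635 (permutation p = 0.00996, adjusted p = 0.0498), with 0.653 in LFC (exact permutation p = 0.0797), 0.528 in HFC (exact permutation p = 0.181) and 0.592 without the 2 farthest pigs. The adjusted permutation p of all 3 rose over 0.05 without the 2 farthest pigs and without the 4 pigs high in glia and myelin genes. The mean level of PRL was higher in HFC, and with values centred on the group means the r was 0.641 for CPE with PRL (adjusted permutation p = 0.0385) and 0.595 for SCG2 with PRL (adjusted permutation p = 0.0642). Centred in the same way, SCG5 with CGA had r = 0.684 (adjusted permutation p = 0.0212). SCG2 with PRL also lost its call without LFC pig 5 (adjusted permutation p = 0.0561) and without HFC pig 8 (adjusted permutation p = 0.0528). SCG5 with CGA lost its call without the 2 pigs high in ribosomal protein genes (r = 0.611, adjusted permutation p = 0.0833), which had the highest CGA levels of their groups, 53610 CPM in LFC pig 4 and 36287 CPM in HFC pig 5.

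**Figure D4:**
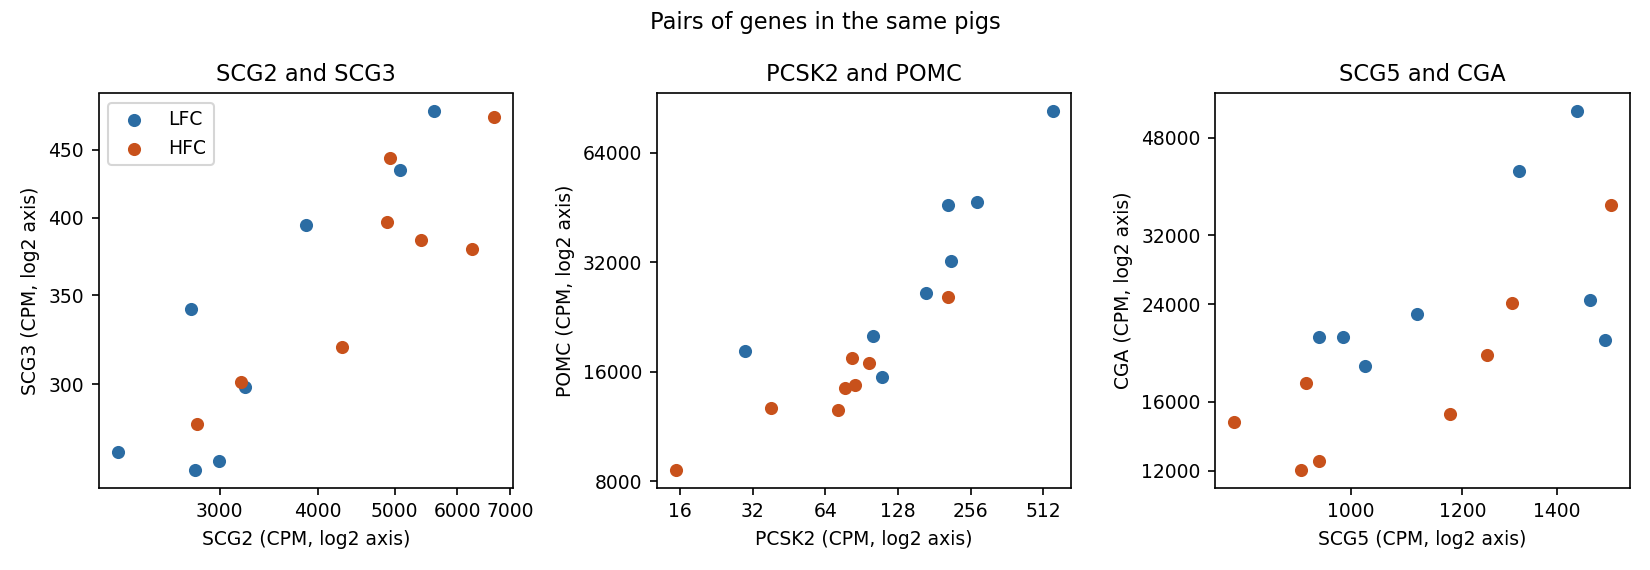
Levels of 2 genes in the same pigs, in CPM on log2 axes, for SCG2 with SCG3, PCSK2 with POMC and SCG5 with CGA, where each point is 1 of 8 LFC or 8 HFC pigs. Pigs of both groups lie along the same rising trend for SCG2 with SCG3 (r = 0.866) and for PCSK2 with POMC (r = 0.886), and they scatter more for SCG5 with CGA (r = 0.706).

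The mean of the 8 genes, each standardized over the 16 pigs, was used to find the genes whose pattern was most like theirs. The 5 genes with the highest r were RPN1 (0.940), RCN3 (0.926), COPB1 (0.918), PRKAR1A (0.900) and PDIA3 (0.898). Their r was between 0.932 and 0.963 within LFC and between 0.852 and 0.974 within HFC. Of 13611 other genes 82 (0.602%) had r of at least 0.8 with that mean, and these values are a description with no test.

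Of the other genes of the pathway, none was called with edgeR, DESeq2 or limma voom. Of 13 tested convertases and trimming enzymes, 8 were higher and 5 lower in HFC, and only FURIN, a convertase of the Golgi, reached an unadjusted p of 0.05 with edgeR, with 79.3 CPM ± 9.76 (SD, n = 8) in LFC and 94.2 CPM ± 16.4 (SD, n = 8) in HFC. Of 8 genes for cofactors, sorting and sulfation, 4 were higher and 4 lower, and only ATP7A, a copper pump that supplies the amidating enzyme, reached that p, with 13.3 CPM ± 2.09 (SD, n = 8) and 16.4 CPM ± 3.02 (SD, n = 8). Of 17 genes of the proton pump that acidifies granules and other organelles, 7 were higher and 10 lower, with ATP6V0A1 at 79.2 CPM ± 18.1 (SD, n = 8) and 99.1 CPM ± 16.2 (SD, n = 8) as the single gene at that p. These 3 genes fell short of a 1.3-fold change and are named because each was the only one of its list. Of 15 granule membrane and release genes, 7 were higher and 8 lower, a split that turned to 8 and 7 with total library size scaling. Among these PTPRN, which encodes the granule membrane protein IA-2, had 180 CPM ± 50.8 (SD, n = 8) in LFC and 260 CPM ± 74.0 (SD, n = 8) in HFC, with 7 of 8 HFC pigs above the LFC median. Its log2 fold change was 0.53 (SE 0.19, 95% interval 0.13 to 0.94, unadjusted p = 0.0128, adjusted p = 0.413 with edgeR). Over all genes tested, 5.81% reached this p together with a fold change of at least 1.3.

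Signs of tissue makeup and RNA composition varied beside these genes. The 4 tested glia and myelin genes were all lower in HFC, with a median log2 fold change of -0.94, and none reached an unadjusted edgeR p of 0.05. None of the 5 with a row was at 0 in every pig, and MBP, a main myelin protein, had 608 CPM ± 947 (SD, n = 8) in LFC and 244 CPM ± 350 (SD, n = 8) in HFC. LFC pig 1 had the lowest LFC level of SCG5, PCSK1N and CPE, and HFC pig 6 had the lowest HFC level of SCG2, SCG3, SCG5 and CPE, both of them pigs high in glia and myelin genes. LFC pig 7, also high in these, had the highest LFC level of CHGA, and LFC pig 6, which was not, had the lowest LFC level of CHGA, CHGB and VGF. Of the other marker lists, stem and folliculostellate genes had 2 of 3 higher in HFC, endothelium and blood 4 of 5, macrophage 1 of 5, connective tissue 3 of 5 and endocrine transcription factors 3 of 7 (4 of 7 with total library size scaling). COL1A2, a collagen gene of connective tissue, had 104 CPM ± 30.5 (SD, n = 8) in LFC and 193 CPM ± 45.4 (SD, n = 8) in HFC, with an adjusted p of 0.372 in edgeR and 0.00892 in DESeq2, which called it. The other connective tissue genes had smaller log2 fold changes, 0.36 for COL1A1, 0.17 for COL3A1 and -0.11 for both DCN and LUM. The endothelial genes VWF (log2 fold change 0.78) and CDH5 (0.43) had unadjusted p-values of 0.0126 and 0.0436 in edgeR. Of the same list, PECAM1 (0.06) and KDR (0.29) did not reach an unadjusted p of 0.05. The blood gene HBB went the other way (log2 fold change -1.05, unadjusted p = 0.0517 in edgeR). The summed endothelium and blood genes had a median of 545 CPM in LFC and 329 CPM in HFC. COL1A2 and VWF lay above the LFC median in 8 of 8 HFC pigs, and the part of these markers in the levels of the granule genes was not tested. All 13 mitochondrial genes were higher, of which DESeq2 called 2 (ND5 and ND6), and all 73 tested ribosomal protein genes were lower in HFC, with medians of 0.39 and -0.28 on the log2 scale. Without the 4 pigs high in glia and myelin genes, the 8 genes again had 5 higher in HFC and 0 that reached an unadjusted edgeR p of 0.05, and 9 pairs among the 10 genes had an adjusted permutation p of at most 0.05. Without the 2 pigs high in ribosomal protein genes the counts were 5, 0 and 8. The pairs with a hormone gene that passed numbered 1 and 3 in these sets. What else these compositions contributed to the levels was not tested.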

How the data were processed

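Whole pituitaries of 16 gilts were sequenced on an Illumina HiScanSQ from TruSeq v2 libraries. The authors cleaned and aligned the reads (pig assembly Sscrofa11.1, Ensembl genes) and deposited whole-number counts per gene and pig. Their methods name Bowtie 2 as well as RSEM with STAR, and the submitters' processing notes list CASAVA 1.8.2, FastQC, RSEM, STAR and DESeq2. The authors also deposited their comparison of the groups with mean levels, fold changes and p-values, of which only symbols and positions were used here. Groups were taken from the sample labels. The columns of the count table carried the sample names.

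Genes were named by the deposited symbol (9550 genes), the RefSeq list (5875 genes) or position (322 genes), and 8643 of 8982 genes with both names had the same name in both (96.2%). In R 4.3.3, edgeR 4.0.16 was run with TMM scaling, filterByExpr and quasi-likelihood tests, and genes were called when the adjusted p was no larger than 0.05 and the fold change 1.3 or more. The study used DESeq2, which served as an alternative (1.42.0), beside limma 3.58.1 (voom) and sva 3.50.0. At the same thresholds the paper reports more genes for this breed than the 29 that DESeq2 called here. Its lists of those genes include CHGA, which was not called here. The paper also measured PRL, POMC and CGA by qPCR in all pigs and reports that this bore out its sequencing. The cause of the difference in calls was not tested. Correlations were run in Python 3.11.15 with scipy 1.17.1. Further alternatives changed the scaling, filter, pseudocount (1 or 0.1 CPM), replicate block and the pigs included. On simulated data for HFC against LFC with 13542 genes, edgeR recovered 79 of 100 genes changed 2-fold and 47 of 100 changed 1.5-fold, with 10 false calls. The simulated counts of each gene were drawn independently, without the composition that genes of a real library share. These rates therefore need not hold for the real data, where edgeR called 0 of 13621 genes. Pigs of a group had a common coefficient of variation of 0.249, and pairs of libraries differed by a chi-square per degree of freedom of 11.4 to 85.9, far beyond sampling noise. Each pig was 1 sample.

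The genes, lists and tests were chosen with earlier results of these data known. Named were every gene of the list, every hormone gene found, the genes of other pathway lists with an unadjusted p no larger than 0.05 and a fold change of 1.3 or more, the 3 highest and 3 lowest correlations between members and the 5 genes most like their mean. FURIN, ATP7A, ATP6V0A1, TBX19, PCSK1 and the marker genes of other cell types were named after their values were seen. CADPS, ATP6V0E2, LHB, PITX1, S100B, SOX2, HBA1, RPL3 and RPS21 were looked for and not found by name.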

Additional observations from a re-analysis of the deposited data

Results flagged for a closer look

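In 7 of 38 groups of 8 pigs, over 19 genes, the highest pig was separated from the next by more than Dixon's 95% critical share of the range of the group. Chance exceeds that share in about 1 in 20 groups of normally distributed values. The values here were CPM without a log, and the genes come from the same pigs. The 7 of 38 is therefore a description and cannot be set against the 1 in 20. CHGA had 2258 CPM in HFC pig 4, with 1377 CPM in the next HFC pig. PCSK2 had 559 CPM in LFC pig 3, with 272 CPM in the next, and 207 CPM in HFC pig 7, with 97.4 CPM in the next. LFC pig 3 was also highest for PAM, with 561 CPM against 420 CPM, and for POMC, with 83136 CPM against 46767 CPM. AVP had 120.0 CPM in LFC pig 1, with 21.6 CPM in the next, and 89.5 CPM in HFC pig 6, with 16.2 CPM in the next. Both of these pigs were among the 4 with glia and myelin genes over 1000 CPM.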

How the results depend on the processing

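The count of the 8 genes called was 0 under every alternative, and the lowest adjusted p of any of the 10 genes under any of them was 0.105, for VGF without HFC pig 5. Genes called over the whole table were 0 with edgeR and voom and 29 with DESeq2. The count of the 8 genes at an unadjusted p of at most 0.05 was 0 with edgeR, 1 with scaling to the total library size, 1 with at least 10 counts in every pig, 3 with DESeq2, 2 with voom, and 0 to 3 when each pig was left out (3 without LFC pig 8 or HFC pig 5). With a replicate block it was 2, and of same-numbered pigs 3 of 8 pairs had a correlation of deviations over 0.1 (range -0.343 to 0.374), with 0 pigs matching best with their own number, so the numbers do not pair the pigs. With PCSK2 and VGF counted in, an alternative chosen after seeing the data, it was 2. The log2 fold change turned in sign for PCSK1N with voom (0.021), for SCG3 and SCG5 with 1 surrogate variable (-0.026 and 0.045), and for PAM without LFC pig 3 (0.069) and without HFC pig 5 (0.022), the lowest of its values with 1 pig left out being -0.069. With that surrogate variable the log2 fold changes of CHGA, CHGB and VGF were smaller (0.16, 0.13 and 0.30) and VGF had an unadjusted p of 0.257, and with the replicate block PCSK2 had 0.0877. Pairs with a hormone gene at an adjusted permutation p of at most 0.05 numbered 4, and 2 with total library size, 1 without the 2 farthest pigs and 1 without the 4 pigs high in glia and myelin genes, PCSK2 with POMC being among them each time. The median correlation between the 10 genes was 0.345 without the 2 pigs high in ribosomal protein genes. Both sets of left out pigs were chosen after seeing the data. CHGA with SCG5 passed with total library size (r = -0.704, adjusted permutation p = 0.0114). Of all genes at an unadjusted p of at most 0.05, 61.4% were higher in HFC, and 46.0% with total library size. These genes numbered 1559, but 2540 with voom, 625 with 1 surrogate variable, 2650 without the 2 pigs high in ribosomal protein genes, and 989 to 3514 when each pig was left out, with 989 without HFC pig 4 and 3514 without HFC pig 5. The causes of these shifts were not tested.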
